A study of Danio rerio with 8 samples.

Results

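The 10 genes described here, *zar1*, *zar1l*, *btg4*, *bmp15*, *mos*, *cpeb1b*, *org*, *h1m*, *slbp2* and *wee2*, are genes whose RNA is stored in the zebrafish oocyte. They are 10 of the 32520 genes of the count data and were listed by name, with no rule on their levels, although earlier results of these data were known when the list was made. A fish egg is laid with a large store of maternal mRNA, because the embryo does not transcribe its own genome during the first cleavages. Many of these mRNAs are kept silent by short poly(A) tails and masking proteins, are given longer tails when they are needed during meiosis, and are shortened and degraded after the zygotic genome is switched on. RNA-binding proteins, kinases of the meiotic arrest, oocyte forms of histones and their partners, and oocyte growth factors are well-known parts of that store. Whether reads at 8 h after fertilization came from stored RNA or from new transcription was not tested.

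Expression was measured at 8 hpf, during gastrulation, in 4 libraries of *miR-34a-/-* embryos and 4 libraries of wild-type embryos, and both genotypes were in the *casper* background, which lacks most pigment. The *miR-34a-/-* fish carry a Cas9 deletion of the *miR-34a* gene and were kept as a homozygous line of their own, so that the mothers were mutant too and the wild-type embryos were not their siblings. An effect of the deletion on the store in the egg, an effect in the embryo and a difference between the parent lines therefore cannot be told apart. Whole embryos were pooled, in groups of 30 per the series design, or 30 to 50 per the sample labels, and polyadenylated RNA was sequenced. For mRNAs with regulated poly(A) tails, a change in amount and a change in tail length that alters capture cannot be told apart. The labels do not say that the libraries of a genotype came from separate clutches, so the p-values measure only the spread between these libraries, which may be technical.

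Between 8159574 and 15724724 reads per library were counted on genes in *miR-34a-/-*, against 7132045 to 11191023 in wild-type. A single count was worth 0.0642 to 0.140 CPM (reads scaled to library size with TMM factors), and 3 counts were set as the floor of detection in a library. The genes *mir34a*, *mir34b* and *mir34c* had 0 counts in all 8 libraries, which allows up to 3 counts in each, so the labels could not be checked on the deleted gene. The 26 zygotic genes of the gastrula that were tested, among them *tbxta*, *gsc*, *tbx16* and *krt4*, were read in every group, with none at 0, and their summed level had a median of 12600 CPM in *miR-34a-/-* (range 12300 to 13000) and 12900 CPM in wild-type (range 12000 to 13200). Most of that sum came from the keratins *krt4* and *krt5*. Their means were 4250 and 2750 CPM in *miR-34a-/-* and 4260 and 2640 CPM in wild-type. The sum therefore says little about the other zygotic genes. Of the 13842 genes that passed the filter on low counts, 45.4% had an adjusted p-value under 0.05 between the genotypes (edgeR quasi-likelihood test with Benjamini-Hochberg adjustment over all genes tested), 23.0% being higher and 22.4% lower in *miR-34a-/-*.

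All 10 oocyte transcripts had reads in every library, though *bmp15* was at the floor of 3 counts in wild-type library 1. Of the 10, 9 passed the filter on low counts, the exception being *slbp2*. The transcripts *cpeb1b*, *zar1* and *wee2* rose in *miR-34a-/-*, *org* fell, and the remaining 5, *zar1l*, *btg4*, *bmp15*, *mos* and *h1m*, did not pass the test in either direction. The share called, 4 of 9 or 44.4%, was close to the 45.4% of all genes tested, so the number of calls does not set these genes apart. Their median log2 fold change was 0.34, against −0.00 over all genes tested. That median is the value of *mos*, which was not called, and the members had both signs, from −0.39 to 1.62. *mos*, *bmp15* and *cpeb1b* reached the level set by the filter in every *miR-34a-/-* library, but not in every wild-type library. *slbp2*, at −0.04 in the fit without the filter, is outside this median. The median therefore depends in part on the filter, and no trend is read from it. Libraries of the genotypes were fully separated for 2 of the 10, *cpeb1b* (higher) and *org* (lower). Among all genes tested 38.8% were separated in this way, 19.6% being higher and 19.2% lower in *miR-34a-/-*. Only *cpeb1b* among the 9 was called with a change of at least 1.5-fold, and it also exceeded 2-fold, which 17.6% and 8.11% of all genes tested did. In bulk embryos, fewer cells that hold a transcript and less of it per cell cannot be told apart, and this applies to every value below. The plot of CPM by library shows all values.

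**Figure D1:**
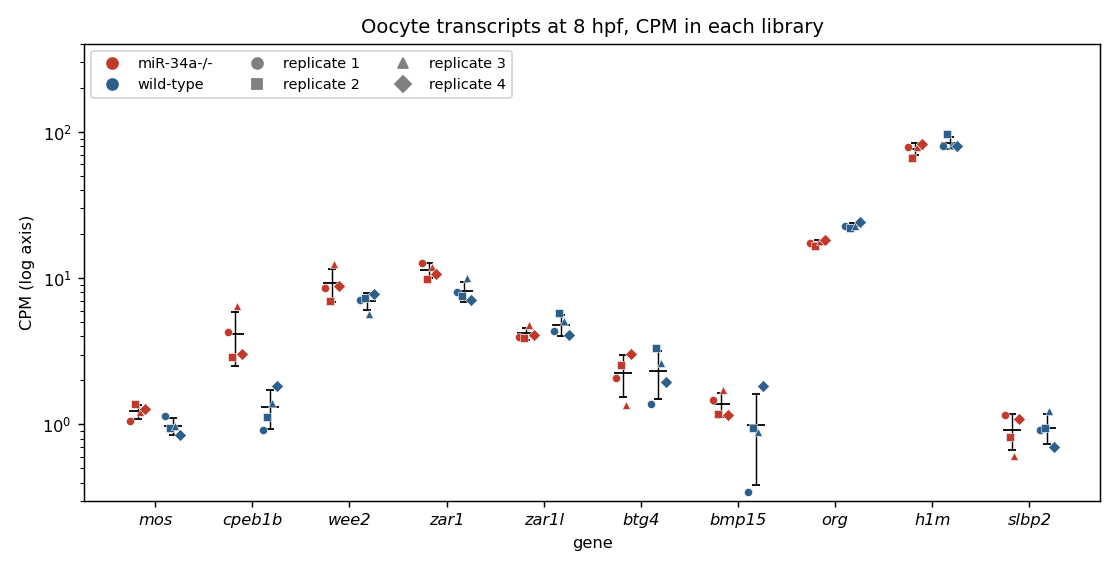
CPM (log axis) of the 10 oocyte transcripts in each *miR-34a-/-* library (red, left of each pair) and each wild-type library (blue, right); symbols mark the replicate number, bars the mean and SD of 4 libraries. The *miR-34a-/-* and wild-type libraries lie apart for *cpeb1b* and *org* and overlap for the other 8 genes.

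The first group of genes controls the translation of stored mRNAs. *cpeb1b*, with the older name zorba, encodes a cytoplasmic polyadenylation element binding protein. This class of factors holds CPE-containing mRNAs silent and directs the lengthening of their tails. *cpeb1b* had 4.29, 2.91, 6.49 and 3.02 CPM in *miR-34a-/-* libraries 1 to 4, against 0.915, 1.13, 1.41 and 1.82 CPM in wild-type libraries 1 to 4. The lowest *miR-34a-/-* value exceeded the highest wild-type value, and the mutant values were themselves uneven, with library 3 far above libraries 2 and 4. The mean was 4.18 ± 1.66 CPM in *miR-34a-/-* and 1.32 ± 0.390 CPM in wild-type (SD, n = 4 each), and *cpeb1b* rose by 1.62 on the log2 scale (SE 0.28, 95% confidence interval 1.04 to 2.19, adjusted p = 3.4e-05), or 3.07-fold. The exact two-sided permutation test gave p = 0.0286, which is the smallest that 4 against 4 libraries allow. This was the largest change of the 10 genes, and it ranked 231 from the top among the 13842 genes. Without *miR-34a-/-* library 3 the log2 fold change was 1.36 (adjusted p = 0.00022). The wild-type reads of *cpeb1b* were few, 49 over the 4 libraries, against 173 in *miR-34a-/-*.

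*zar1* encodes Zygote arrest 1, an RNA-binding protein of the oocyte that restrains the translation of stored mRNAs. It was read at 12.8, 9.83, 12.0 and 10.6 CPM in *miR-34a-/-*, against 8.01, 7.57, 9.96 and 7.14 CPM in wild-type. The genotypes overlapped by a narrow margin, since *miR-34a-/-* library 2 lay just under wild-type library 3, and the other 3 mutant libraries lay above all wild-type libraries. The means were 11.3 ± 1.32 and 8.17 ± 1.25 CPM in *miR-34a-/-* and wild-type (SD, n = 4 each), and *zar1* rose by 0.44 on the log2 scale (SE 0.13, 95% confidence interval 0.18 to 0.70, adjusted p = 0.0066), or 1.35-fold. By the exact permutation test on these 8 values alone p was 0.0571. The call was kept without any given library, with log2 fold changes of 0.38 to 0.55.

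Its paralog *zar1l* had 3.97, 3.92, 4.77 and 4.11 CPM in *miR-34a-/-*, against 4.35, 5.77, 5.11 and 4.06 CPM in wild-type. These values overlapped, and the direction was opposite to that of *zar1* without passing the test: the log2 fold change was −0.23 (SE 0.17, 95% confidence interval −0.58 to 0.11, adjusted p = 0.27). In folds, the interval reaches from 0.670 to 1.08.

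*btg4* encodes a BTG/TOB family protein which, in the mouse, brings the CCR4-NOT deadenylase to maternal mRNAs and so starts their removal. Its levels were 2.09, 2.55, 1.35 and 3.02 CPM in *miR-34a-/-*, against 1.37, 3.31, 2.64 and 1.96 CPM in wild-type. Neither genotype was the higher, and each spanned more than a 2-fold range. The log2 fold change was −0.02 (SE 0.27, 95% confidence interval −0.57 to 0.52, adjusted p = 0.96), an interval of 0.675- to 1.44-fold, and its sign depended on single libraries, with values of −0.22 to 0.20 when a library was left out. In the RefSeq gene order of assembly GRCz12tu, *btg4* lies directly beside *mir34b* and *mir34c*, the relatives of the deleted gene, which had no reads here.

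The next 2 genes set the activity of Cdk1, the kinase that drives meiosis and mitosis. *mos* encodes the kinase at the head of the MAP kinase cascade that arrests the egg in metaphase of the second meiotic division. It was read at 1.05, 1.37, 1.22 and 1.28 CPM in *miR-34a-/-*, against 1.14, 0.946, 0.970 and 0.839 CPM in wild-type, which came from 10 to 20 reads per mutant library and 6 to 11 per wild-type library. Mutant libraries 2, 3 and 4 lay above all wild-type libraries, and mutant library 1 lay among them. The log2 fold change of 0.34 did not pass the test (SE 0.30, 95% confidence interval −0.28 to 0.95, adjusted p = 0.38, and p = 0.0571 by the exact permutation test).

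*wee2* encodes the oocyte form of the Wee1 kinase, which in the mouse keeps Cdk1 inactive in the arrested oocyte. It had 8.57, 7.01, 12.5 and 8.85 CPM in *miR-34a-/-*, against 7.09, 7.28, 5.73 and 7.83 CPM in wild-type. Mutant library 3 was again the highest, mutant library 2 lay below 3 of the 4 wild-type libraries, and the genotypes overlapped. The means were 9.23 ± 2.32 CPM in *miR-34a-/-* and 6.98 ± 0.894 CPM in wild-type (SD, n = 4 each), and *wee2* rose by 0.39 on the log2 scale (SE 0.15, 95% confidence interval 0.08 to 0.71, adjusted p = 0.039), or 1.31-fold. This call rested on single libraries: adjusted p was 0.18 without *miR-34a-/-* library 3 (log2 fold change 0.25), 0.15 without wild-type library 3 (0.29), 0.058 without wild-type library 1 and 0.056 without *miR-34a-/-* library 4 (0.41 each). By the exact permutation test p was 0.114, and DESeq2 and limma-voom did not call it (adjusted p = 0.066 and 0.054).

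The next group concerns histones. *h1m* encodes the maternal linker histone, the form of H1 that compacts chromatin in the egg and the cleaving embryo. It was read at 79.5, 66.6, 78.8 and 83.3 CPM in *miR-34a-/-*, against 79.6, 96.7, 82.1 and 80.3 CPM in wild-type. The values overlapped, with *miR-34a-/-* library 2 the lowest and wild-type library 2 the highest of all. The log2 fold change was −0.14 (SE 0.07, 95% confidence interval −0.28 to −0.00, adjusted p = 0.095). Single libraries moved it: it was −0.07 without *miR-34a-/-* library 2 or without wild-type library 2 (adjusted p = 0.41 and 0.42), and −0.19 without *miR-34a-/-* library 4, where it passed the test (adjusted p = 0.039). With 3433 reads in *miR-34a-/-* and 3224 in wild-type, *h1m* had the most reads of the 10 genes and supplied 57.4% to 61.9% of their summed CPM in *miR-34a-/-* libraries and 61.5% to 66.0% in wild-type libraries, so the sum over the 10 (median 133 CPM in *miR-34a-/-*, 132 CPM in wild-type) mostly shows this gene.

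*slbp2* encodes the oocyte form of the stem-loop binding protein, which holds histone mRNAs by the hairpin at their end. It had 11, 9, 5 and 17 reads in *miR-34a-/-*, or 1.15, 0.820, 0.612 and 1.09 CPM, against 8, 10, 14 and 5 reads in wild-type, or 0.915, 0.946, 1.23 and 0.700 CPM. The genotypes overlapped throughout. It did not pass the filter on low counts, and in the fit without that filter its log2 fold change was −0.04 (adjusted p = 0.95).

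The last 2 genes are an oocyte growth factor and a gene known mainly by where it is expressed. *bmp15* encodes a ligand of the TGF-beta family that the oocyte secretes towards the follicle cells around it. Its values were 1.46, 1.18, 1.71 and 1.15 CPM in *miR-34a-/-*, against 0.343, 0.946, 0.882 and 1.82 CPM in wild-type. The wild-type libraries were the more uneven, since library 1 held 3 reads and library 4 held 13, and the mutant values lay between them. The log2 fold change was 0.48 (SE 0.35, 95% confidence interval −0.24 to 1.20, adjusted p = 0.27), and it was 0.22 without wild-type library 1 and 0.84 without wild-type library 4 (adjusted p = 0.64 and 0.072).

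*org*, the oogenesis-related gene, was named in zebrafish for its expression in the ovary. It was read at 17.3, 16.7, 17.9 and 18.2 CPM in *miR-34a-/-*, against 22.6, 21.9, 22.9 and 24.2 CPM in wild-type. Every *miR-34a-/-* library lay below every wild-type library, and within each genotype the values were close. The means were 17.5 ± 0.665 CPM in *miR-34a-/-* and 22.9 ± 0.946 CPM in wild-type (SD, n = 4 each), and *org* fell by 0.39 on the log2 scale (SE 0.08, 95% confidence interval −0.56 to −0.21, adjusted p = 0.00044), to 0.766 of its wild-type level (p = 0.0286 by the exact permutation test). Leaving out any library gave values between −0.41 and −0.36, all past the threshold. The change of *org* was far smaller than that of *cpeb1b* but had the smaller standard error, as the plot of fold changes shows.

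**Figure D2:**
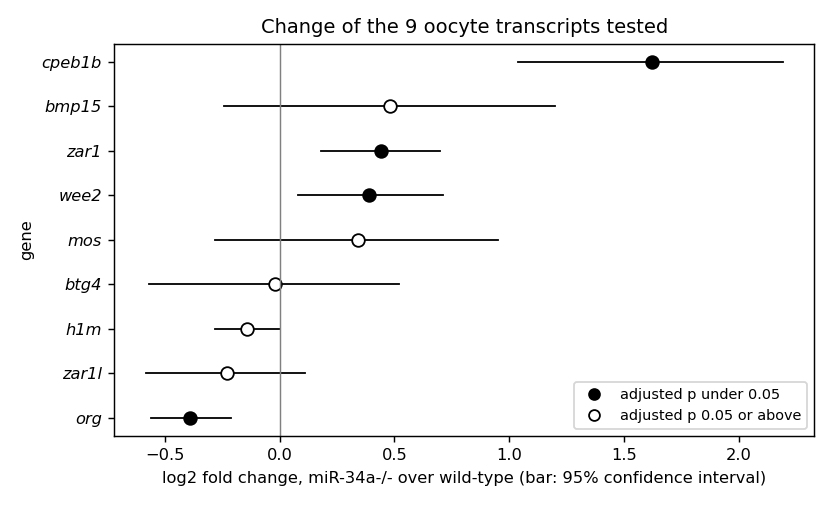
Log2 fold change of the 9 oocyte transcripts tested, *miR-34a-/-* over wild-type (points) with 95% confidence intervals (bars); filled points passed an adjusted p of 0.05. *cpeb1b*, *zar1* and *wee2* lie above 0 and *org* below it, and the 4 widest intervals are those of *bmp15*, *mos*, *cpeb1b* and *btg4*.

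How readily a gene is called depends on its level, so each member was also set beside the genes within 1.25-fold of its level. Among the 1153 such genes for *cpeb1b*, 35.6% were called and the median standard error was 0.23, close to its own 0.28. For *bmp15* and *mos* the shares called were 34.3% and 34.7% with median standard errors of 0.33 and 0.34, and for *btg4* 36.3% and 0.25. At the level of *h1m*, 53.9% of 877 genes were called with a median standard error of 0.06. For *zar1l* the share was 38.8% and the median standard error 0.18, beside its own 0.17. The tested members that were not called had standard errors like those of other genes at their levels. The fit itself draws the spread of a gene towards that of genes of like level, so this likeness says little.

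Some of the oocyte transcripts have a relative, which is used in other cells (*wee1*, *slbp*, *btg3*) or is itself an oocyte transcript (*zar1l*, *gdf9*), and the ratio of both inside a library does not depend on how the library was scaled. The log2 ratio was computed for 4 pairs with enough reads (0.5 added to each count), and p-values from exact two-sided permutation tests were adjusted over these 4. The smallest p that 4 against 4 libraries allow is 0.0286, so that after adjustment over 4 pairs a lone pair with full separation cannot go below 0.114, which was the smallest adjusted p obtained. That no pair passed after adjustment therefore says nothing about the size of a difference. For *cpeb1b* with *cpeb1a*, and *bmp15* with *gdf9*, the relative had 4 reads or fewer in every library and no ratio was taken.

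For *zar1* with *zar1l*, the log2 ratio was 1.67, 1.32, 1.32 and 1.36 in *miR-34a-/-*, against 0.87, 0.39, 0.96 and 0.80 in wild-type. The genotypes did not overlap, with means of 1.42 ± 0.17 and 0.76 ± 0.25 in *miR-34a-/-* and wild-type (SD, n = 4 each), and the difference was 0.66 (SE 0.15, exact permutation p = 0.0286, adjusted p = 0.114). The ratio of both paralogs thus did not overlap, while each gene alone did. Full separation was seen for 38.8% of all single genes tested, and no such share was computed for ratios.

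For *wee2* with *wee1*, the kinase of dividing somatic cells, the log2 ratio was −4.93, −5.21, −4.38 and −4.96 in *miR-34a-/-*, against −5.29, −5.22, −5.58 and −5.16 in wild-type. The values overlapped, and the difference of 0.44 (SE 0.20) had an exact permutation p of 0.0571 and an adjusted p of 0.114. *wee1* itself did not pass the test, at 266 CPM in *miR-34a-/-* and 278 CPM in wild-type (log2 fold change −0.06, adjusted p = 0.19).

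The ratios of *slbp2* to *slbp* and of *btg4* to *btg3* overlapped widely. Their differences were −0.06 (SE 0.25, exact permutation p = 0.829) and −0.09 (SE 0.37, exact permutation p = 0.714). *slbp*, the stem-loop binding protein of cycling cells, averaged 570 CPM in *miR-34a-/-* and 574 CPM in wild-type. *btg3* averaged 51.4 CPM in *miR-34a-/-* and 49.3 CPM in wild-type, and neither *slbp* nor *btg3* passed the test (adjusted p = 0.86 and 0.46).

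**Figure D3:**
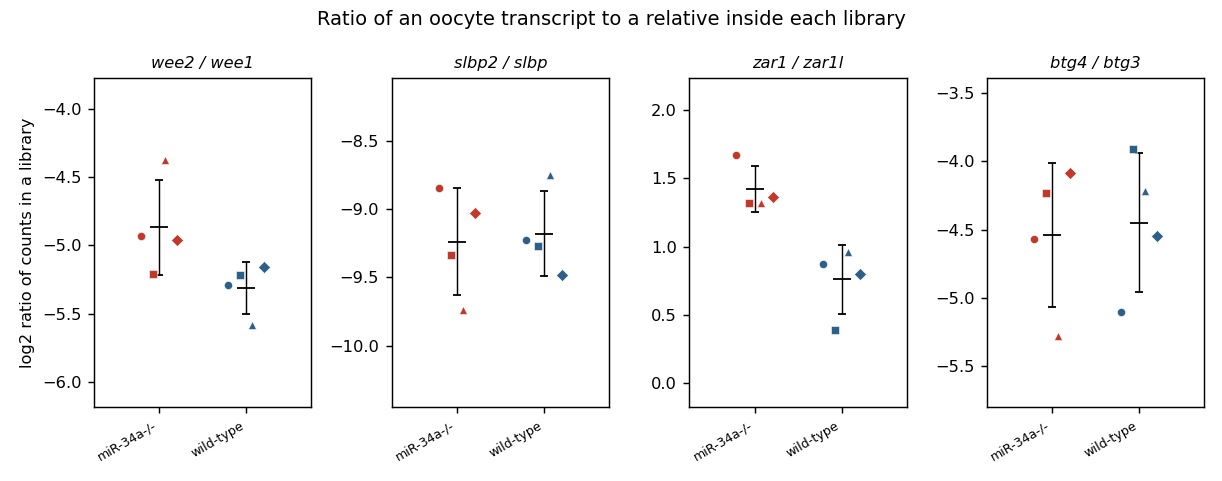
Log2 ratio of counts of an oocyte transcript to those of a relative in each *miR-34a-/-* library (red, left) and wild-type library (blue, right); symbols mark the replicate number as in the plot of CPM by library, bars the mean and SD of 4 libraries, and each panel spans the same length of axis. The genotypes lie apart for *zar1* to *zar1l* and overlap for the other 3 ratios.

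The replicates of a genotype were not equally alike for all 10 transcripts. Counting error alone would give *cpeb1b* a coefficient of variation of 15.6% in *miR-34a-/-*, and the observed value was 39.8%, whereas in wild-type the observed 29.5% was close to the 29.1% from counting. *wee2* showed the same contrast, with 25.1% observed against 10.3% from counting in *miR-34a-/-* and 12.8% against 12.6% in wild-type. *h1m* varied by 9.41% in *miR-34a-/-* and 9.57% in wild-type, where counting gives 3.52% and 3.58%. *btg4* also exceeded counting in both genotypes, with 31.6% against 20.0% in *miR-34a-/-* and 36.2% against 21.3% in wild-type. *bmp15* did so only in wild-type, with 61.2% against 34.0%, and had 19.1% against 26.8% in *miR-34a-/-*. By contrast *org* varied by 3.80% and 4.13% in *miR-34a-/-* and wild-type, and *mos* by 11.0% and 12.9%, no more than counting gives.

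The highest *miR-34a-/-* value of *cpeb1b* and of *wee2* was that of library 3, and the spread without this library was not computed. A comparison chosen after the values were seen divided each library by the mean of the other 3 of its genotype. That library was at 1.91 times the others for *cpeb1b* and at 1.53 times for *wee2*, and 2 of the 10 members were past 1.5 times there. Over all genes tested the share was 3.06%, which was not matched for level. Mutant library 4 and wild-type library 2 each had 1 member past 1.5 times, *btg4* at 1.51 and 1.66. Mutant library 3 was the highest of its genotype for 4 members, *cpeb1b*, *wee2*, *bmp15* and *zar1l*, where 28.5% of all genes tested were highest in it. It was also the lowest for *btg4* and *slbp2*, so the members did not move together in it. Among wild-type libraries, library 4 was likewise the highest for 4 members, where 25.0% of genes tested were highest in it. It also had 2 members past 1.5 times the others, *bmp15* at 2.51 and *cpeb1b* at 1.58, against 2.88% of genes tested. These 2 values rested on 13 reads each.

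Over all lists of related genes described below, 4 of 126 genes tested (3.17%) were past 1.5 times in *miR-34a-/-* library 3, close to the 3.06% of all genes tested, and the median was 0.995 times. The germ plasm genes lay between 0.682 and 2.76 times (1 of 13 past 1.5) and the oocyte genes between 0.634 and 2.13 times (1 of 14). The 4 genes are named after their values were seen. *buc* (Bucky ball, which organizes the germ plasm of the oocyte) was at 2.76 times the other mutant libraries. *ccna1*, a cyclin A of the germ line, was at 2.13 times, with 36.1, 21.4, 61.8 and 29.8 CPM in *miR-34a-/-*, against 21.8, 34.2, 36.3 and 27.7 CPM in wild-type. *lsm14b*, an RNA-binding protein of stored mRNA particles, was at 1.85 times, and *rps6ka1*, a kinase downstream of Mos and MAP kinase, at 1.89 times. The part of this library in the results was measured by leaving it out: *cpeb1b* and *zar1* remained called, with log2 fold changes of 1.36 and 0.41, and *wee2* did not.

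**Figure D4:**
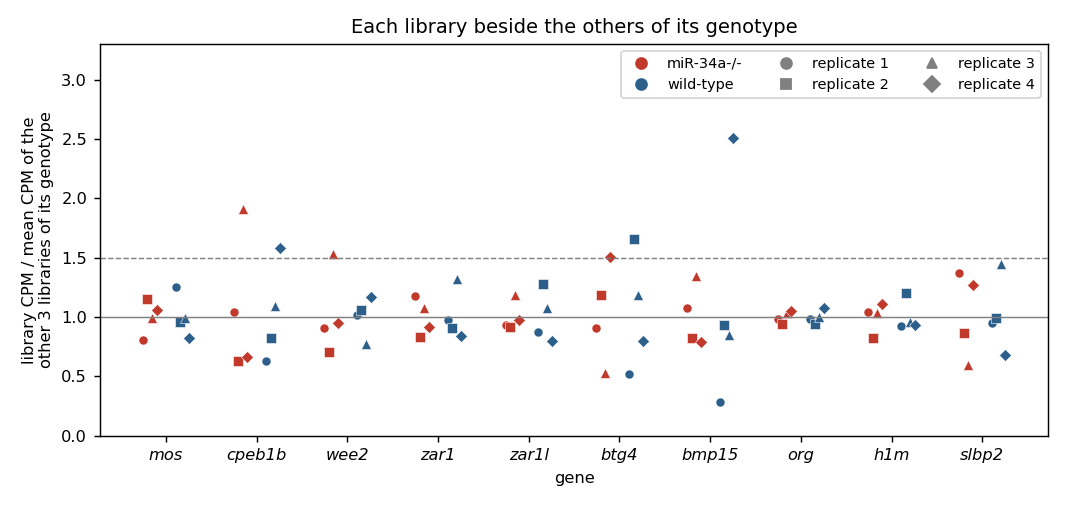
CPM of each library divided by the mean CPM of the other 3 libraries of its genotype, for the 10 oocyte transcripts, with *miR-34a-/-* in red (left) and wild-type in blue (right) and symbols for the replicate number; the solid line marks 1 and the dashed line 1.5. *miR-34a-/-* replicate 3 stands at 1.91 for *cpeb1b* and 1.53 for *wee2*, and wild-type replicate 4 at 2.51 for *bmp15* and 1.58 for *cpeb1b*. For *btg4*, *miR-34a-/-* replicate 4 stands at 1.51 and wild-type replicate 2 at 1.66.

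Genes that work beside the 10 were read from lists drawn up by function. The share called in each list stands beside 45.4% of all genes tested. Beyond the members, 14 genes of the oocyte list were tested. Of these, 3 rose, 1 fell and 10 did not pass, a share of 28.6% called with a median log2 fold change of 0.24. *sycp3*, a component of the synaptonemal complex, rose by 0.79 (SE 0.23, adjusted p = 0.0075, 3.02 CPM in *miR-34a-/-* and 1.77 CPM in wild-type). *eif4e1b*, the oocyte form of the cap-binding protein eIF4E, rose by 0.48 (SE 0.06, adjusted p = 8.2e-07), with 47.9 ± 2.02 CPM in *miR-34a-/-* and 34.6 ± 1.44 CPM in wild-type (SD, n = 4 each). *fbxo43*, also known as Emi2, the inhibitor that maintains the metaphase arrest of the egg, fell by 0.67 (SE 0.17, adjusted p = 0.0021, 3.49 CPM in *miR-34a-/-* and 5.43 CPM in wild-type). The third gene that rose, *cldnd*, a claudin, overlapped between the genotypes (log2 fold change 0.51, adjusted p = 0.0063).

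Among the 11 relatives of the members that were tested, 1 rose and 10 did not pass. The gene that rose was *btg2*, an antiproliferative relative of *btg4*, by 0.18 on the log2 scale (SE 0.05, adjusted p = 0.0068, 177 CPM in *miR-34a-/-* and 156 CPM in wild-type). The share called was 9.09%, with a median of −0.06.

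*cpeb1b* acts with the cytoplasmic polyadenylation and masking machinery, of which 26 genes were tested, with 9 higher, 6 lower and 11 not called (57.7% called, median 0.01). Besides *eif4e1b*, *dazl*, an RNA-binding protein of germ cells, rose by 0.76 (SE 0.22, adjusted p = 0.0057, 3.64 CPM in *miR-34a-/-* and 2.20 CPM in wild-type). *pabpc1b*, a cytoplasmic poly(A)-binding protein, fell by 0.35 (adjusted p = 0.0023, 16.9 CPM in *miR-34a-/-* and 21.6 CPM in wild-type), and *pum2*, a translational repressor of the Pumilio family, fell by 0.25 (adjusted p = 0.0082, 47.0 CPM in *miR-34a-/-* and 56.4 CPM in wild-type).

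The deadenylation list, whose CCR4-NOT complex is the partner of Btg4, had 14 genes tested, of which 3 rose, 1 fell and 10 did not pass (28.6% called, median −0.02). *cnot8*, a catalytic subunit, rose by 0.25 (adjusted p = 0.0013, 79.3 CPM in *miR-34a-/-* and 66.6 CPM in wild-type). *cnot11* rose by 0.20 (adjusted p = 0.028), with 36.9 CPM in *miR-34a-/-* and 32.0 CPM in wild-type, but its adjusted p was 0.12 without wild-type library 4, 0.063 without *miR-34a-/-* library 1 and 0.064 without *miR-34a-/-* library 4. *cnot3b*, a structural subunit, fell by 0.27 (adjusted p = 0.0013, 43.1 CPM in *miR-34a-/-* and 51.9 CPM in wild-type).

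In the list of meiotic arrest and Cdk1 control, around *mos* and *wee2*, 22 genes were tested, of which 2 rose, 7 fell and 13 did not pass (40.9% called, median −0.06). *cdc25d*, of the phosphatase family that activates Cdk1, rose by 1.22 (SE 0.22, adjusted p = 4.9e-05), with 6.18 ± 0.136 CPM in *miR-34a-/-* and 2.69 ± 1.32 CPM in wild-type (SD, n = 4 each). *map2k2b*, a MAP kinase kinase of the step below Mos, fell by 0.79 (SE 0.17, adjusted p = 0.00029, 3.96 CPM in *miR-34a-/-* and 6.66 CPM in wild-type).

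Of 12 tested genes of histone mRNA processing, around *slbp2*, 3 rose, 4 fell and 5 did not pass (58.3% called, median −0.04). *lsm10*, a subunit of the U7 particle that cuts histone mRNAs, rose by 1.73 at the identifier used (SE 0.23, adjusted p = 8.0e-07), with 6.67 ± 1.55 CPM in *miR-34a-/-* and 1.98 ± 0.885 CPM in wild-type (SD, n = 4 each). That identifier was taken because the study reported it as differentially expressed, so the choice favoured a called gene. A further identifier of the same symbol *lsm10* did not pass the filter on low counts and had 0, 2, 1 and 2 reads in *miR-34a-/-*, against 8, 2, 9 and 1 in wild-type, so a split of reads between both makes the value uncertain. *sympk*, the scaffold of the cleavage complex, rose by 0.25 (adjusted p = 7.6e-05). *srrt*, a partner of the nuclear cap-binding complex, fell by 0.26 (adjusted p = 1.4e-06), and *cstf2*, a cleavage stimulation factor, fell by 0.21 (adjusted p = 8.7e-05).

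Germ plasm and primordial germ cells carry maternal RNAs too, so their markers are given beside the members. Of 13 markers, all read and tested, 8 rose, 2 fell and 3 did not pass (76.9% called, median 0.46), against 45.4% of all genes tested. Some markers, among them *buc*, *dazl* and *ca15b*, took their symbols from the genes that the study reported as differentially expressed. This can raise the share called, and its part was not tested. The summed level of the 13 markers was 381 to 399 CPM in *miR-34a-/-* and 357 to 380 CPM in wild-type. Most of this sum came from 1 gene, *celf1*, with means of 231 CPM in *miR-34a-/-* and 211 CPM in wild-type. The sum therefore mostly shows *celf1*. *buc* rose by 1.19 (SE 0.31, adjusted p = 0.0025, 4.79 ± 3.03 CPM in *miR-34a-/-* and 1.95 ± 0.307 CPM in wild-type, SD, n = 4 each), and by 0.74 without *miR-34a-/-* library 3. *ca15b*, a carbonic anhydrase whose RNA marks zebrafish germ plasm, rose by 0.78 (adjusted p = 0.00019, 8.25 CPM in *miR-34a-/-* and 4.89 CPM in wild-type), and *ddx4*, the helicase Vasa, fell by 0.38 (adjusted p = 1.8e-05, 72.8 CPM in *miR-34a-/-* and 95.2 CPM in wild-type). The part of germ cell number in the values of the 10 members was not tested.

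Zygotic genes of the gastrula were read as the marker of stage. Of the 26 tested, 4 rose, 9 fell and 13 did not pass (50.0% called, median −0.05). *vent*, a ventral repressor, rose by 0.35 (adjusted p = 1.7e-05, 91.9 CPM in *miR-34a-/-* and 72.2 CPM in wild-type). *sox17*, an endoderm factor, fell by 0.50 (adjusted p = 1.3e-05, 20.9 CPM in *miR-34a-/-* and 29.8 CPM in wild-type), and *tbx16*, a mesoderm factor, fell by 0.24 (adjusted p = 2.4e-05, 441 CPM in *miR-34a-/-* and 520 CPM in wild-type). The part of a difference in stage in the values of the 10 members was not tested.

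**Figure D5:**
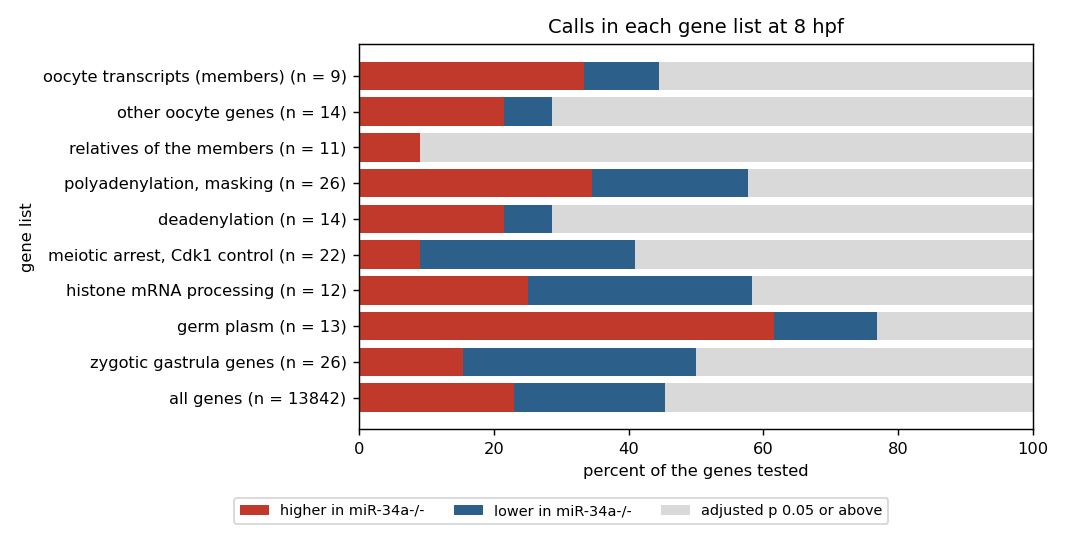
Percent of the tested genes in each list that were higher (red) or lower (blue) in *miR-34a-/-* than in wild-type at an adjusted p under 0.05, with all genes tested in the bottom bar; n is the number of genes tested. The 9 oocyte transcripts tested were called as often as all genes, 44.4% and 45.4%.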

How the data were processed

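The data were 8 libraries of polyadenylated RNA from pools of whole zebrafish embryos at 8 hpf; other stages were not analysed here. The authors trimmed reads with Trim Galore 0.4.4 at a quality of 20 and mapped them with STAR 2.7.8 to danRer11 (versions from the submitters' processing notes), and deposited whole-number counts per Ensembl gene without normalization. The counting program, annotation and use of strand are not given in the sources used here.

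From the counts, log2 fold changes came from edgeR 4.0.16 in R 4.3.3 with TMM, filterByExpr, a quasi-likelihood F test and a model of genotype alone. Benjamini-Hochberg adjustment was over 13842 genes. The fit was also run on simulated counts with the same dispersion for every gene. Those counts lack the uneven spread of genes seen here, so no conclusion is drawn from them. The standard error is the fold change divided by the root of F. Single values were compared by exact permutation over 35 two-sided splits. Alternatives were other scalings and filters, the likelihood ratio test, DESeq2 1.42.0, limma-voom (limma 3.58.1), a replicate block and leaving out each library.

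The 10 members and the lists were chosen with earlier results of these data known, and no list was tested as a set. Named were all members, all genes of the ratio pairs and, from each list, up to 2 genes with the largest rise and 2 with the largest fall among those called without overlap and above the floor; *tbxta*, *gsc*, *krt4*, *krt5*, *celf1*, *cldnd*, *ccna1*, *lsm14b* and *rps6ka1* were added after their values were seen. Symbols came from a table of gene names for 9 members and from the study's gene list for *cpeb1b*; listed symbols that matched no identifier were not analysed here, a further relative of 1 member is not reported here, and of the 2 identifiers of *lsm10* that in the study's gene list was used. Neighbours of *btg4* came from RefSeq. Figures used Python 3.11.15 and matplotlib 3.10.9.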

Additional observations from a re-analysis of the deposited data

Results flagged for a closer look

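In 28 groups of 4 values, the 10 members and 4 ratios in each genotype, the highest or lowest library was compared with its neighbour, and chance alone sets a library apart in about 1 in 20 groups. Wild-type replicate 2 stood above the other wild-type libraries for *h1m*, at 96.7 CPM where the others had 79.6 to 82.1 CPM. *miR-34a-/-* replicate 1 stood above the other *miR-34a-/-* libraries in the log2 ratio of *zar1* to *zar1l*, at 1.67 where the others had 1.32 to 1.36.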

How the results depend on the processing

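The calls of *cpeb1b*, *zar1* and *org* kept their direction and stayed past the threshold under all 17 alternatives run for each. *wee2* was not called by DESeq2 (log2 fold change 0.40), limma-voom (0.37) or without 4 of the libraries, and ranged over 0.25 to 0.50 with a library left out, so that 2 or 3 members were higher. Without *miR-34a-/-* replicate 4, *h1m* was also called and 2 members were lower, against 1 otherwise; its fold change ranged over −0.19 to −0.07. *btg4* was at 0.0048 by limma-voom and ranged over −0.22 to 0.20 with a library left out, so its direction is not known. With a library left out, the difference in log2 ratio ranged over 0.28 to 0.56 for *wee2* to *wee1*, 0.54 to 0.73 for *zar1* to *zar1l*, −0.19 to 0.11 for *slbp2* to *slbp* and −0.31 to 0.15 for *btg4* to *btg3*, with adjusted p of 0.0571 or more (exact permutation test). Between alternatives, 2732 to 3551 genes were higher and 2675 to 3444 lower; the cause was not tested. Replicate numbers did not pair the libraries (correlations of same-numbered libraries −0.0322 to 0.00772). With the replicate block, *cpeb1b* was at 1.65, *zar1* at 0.46, *wee2* at 0.39 and *org* at −0.39, with 3 members higher and 1 lower. *bmp15* and *mos* had few reads, 3 to 20 per library, and 95% intervals of −0.24 to 1.20 and −0.28 to 0.95. The spread of *bmp15* in wild-type, 61.2%, also exceeded the 34.0% that counting gives.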
